A study of Rattus norvegicus with 9 samples.

Results

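The semaphorin, plexin, neuropilin, ephrin and Eph genes were described at a rat femoral fracture treated with 3 gels. The members were the protein-coding rows of the deposited gene count table whose symbol belongs to semaphorin classes 3 to 7, the plexins, neuropilin 1 and 2, the ephrins or the Eph receptors. The rule used gene names and no measured value. It found 52 genes among 35360 in the table, of which 22250 are protein-coding. They comprised 7 secreted semaphorins of class 3, 13 membrane-bound semaphorins, 9 plexins, 2 neuropilins, 5 ephrin-A ligands, 3 ephrin-B ligands, 8 EphA receptors and 5 EphB receptors.

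RNA sequencing with poly-A selection was run on 9 libraries of tissue that the labels place at the middle of the femoral fracture. Mg-ALN gel (Mg-ALN@Gel in the labels) is the gel carrying a metal-organic framework of magnesium and the bisphosphonate ALN, ALN gel (ALN+Gel) is the gel with ALN, and Gel is the gel alone, which the labels call the control. Each group had 3 libraries, and all groups shared the fracture and the gel. The study asked whether magnesium counters the effect of the bisphosphonate on fibrosis. Doses, time after fracture and the strain, age and sex of the rats are not given in the sources used here, nor whether a library is 1 animal or pooled animals, so p-values measure only the spread between these libraries.

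Semaphorins are secreted or membrane-bound guidance proteins that signal through plexins, and most class 3 semaphorins also need a neuropilin as co-receptor. Ephrins and Eph receptors sit on opposing cells and can signal in both directions. In bone, work in mice has tied several of these pairs to the coupling of osteoclasts, which resorb bone, and osteoblasts, which form it: semaphorin 4D from osteoclasts acts on plexin-B1 of osteoblasts, semaphorin 3A acts through neuropilin 1, semaphorin 6D acts on plexin-A1 of osteoclast precursors, and ephrin-B2 meets EphB4.

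The libraries held 13388689 to 18763270 counts, of which 4.16% to 39.5% were mitochondrial, with the highest shares at 31.6% in library 3 of Mg-ALN gel and 39.5% in library 1 of ALN gel, and the members took 22224 to 47132 of these counts. Expression is given as CPM, the depth-scaled count, on library sizes adjusted by edgeR's TMM method, and the members summed to 1752 to 2864 CPM, with the lowest sum in Mg-ALN gel library 1. The common biological coefficient of variation was 51.4%. The 9 osteoblast markers summed to 33500 to 41000 CPM in Mg-ALN gel, 24400 to 34800 CPM in ALN gel and 48400 to 109000 CPM in Gel. Col1a1 made up most of these group differences, at 26500 to 33400 CPM in Mg-ALN gel, 10800 to 29200 CPM in ALN gel and 38600 to 97500 CPM in Gel. For ALN gel relative to Gel, 3 of the 9 markers had a positive fold change and 6 a negative one. The 7 neuron markers summed to 2.17 to 53.6 CPM and the 9 Schwann cell markers to 23.5 to 67.1 CPM over the 9 libraries. Library 1 of Mg-ALN gel also stood out for the 7 neutrophil markers, at 8330 CPM against 87 to 1990 CPM elsewhere. Library 3 of Gel did so for the 6 skeletal muscle markers, at 9550 CPM against 8 to 1960 CPM elsewhere. The part of neutrophil or muscle content in the member values was not tested.

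A filter on low counts (edgeR's filterByExpr) kept 45 members among 15460 genes tested. The 7 members left out were Sema3e, Plxnb3, Efna3, Epha5, Epha7, Epha8 and Epha10, with 0 to 52 counts in all over the 9 libraries. Plxnb3 and Epha8 had no count in any library, and with a floor of 3 counts this allows up to 0.169 to 0.236 CPM, depending on the library. That floor covers counting error only. Epha1 overlaps Zyx on the opposite strand, which held 26299 counts against 393 for Epha1, and strand use in counting is not stated, so its values are uncertain.

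Levels are compared between genes only per length, as CPM per kilobase of the deposited gene length. Nrp2, a co-receptor for semaphorin 3F and for vascular endothelial growth factor C, had the highest level of the members, at a mean of 60.1 CPM per kilobase over the 9 libraries. Plxnd1, the plexin of endothelial cells that binds semaphorin 3E, followed at 54.4, and Plxnb2, a receptor for class 4 semaphorins, at 45.7 CPM per kilobase. Sema7a, a semaphorin anchored in the membrane by a lipid, was the highest ligand at 43.1 CPM per kilobase. Sema3a, at 0.817 CPM per kilobase, lay far below its co-receptor Nrp1 at 28.95 CPM per kilobase. Libraries of a group could differ widely, since Plxnd1 had 199 to 413 CPM in Mg-ALN gel, 290 to 447 CPM in ALN gel and 292 to 312 CPM in Gel.

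**Figure D1:**
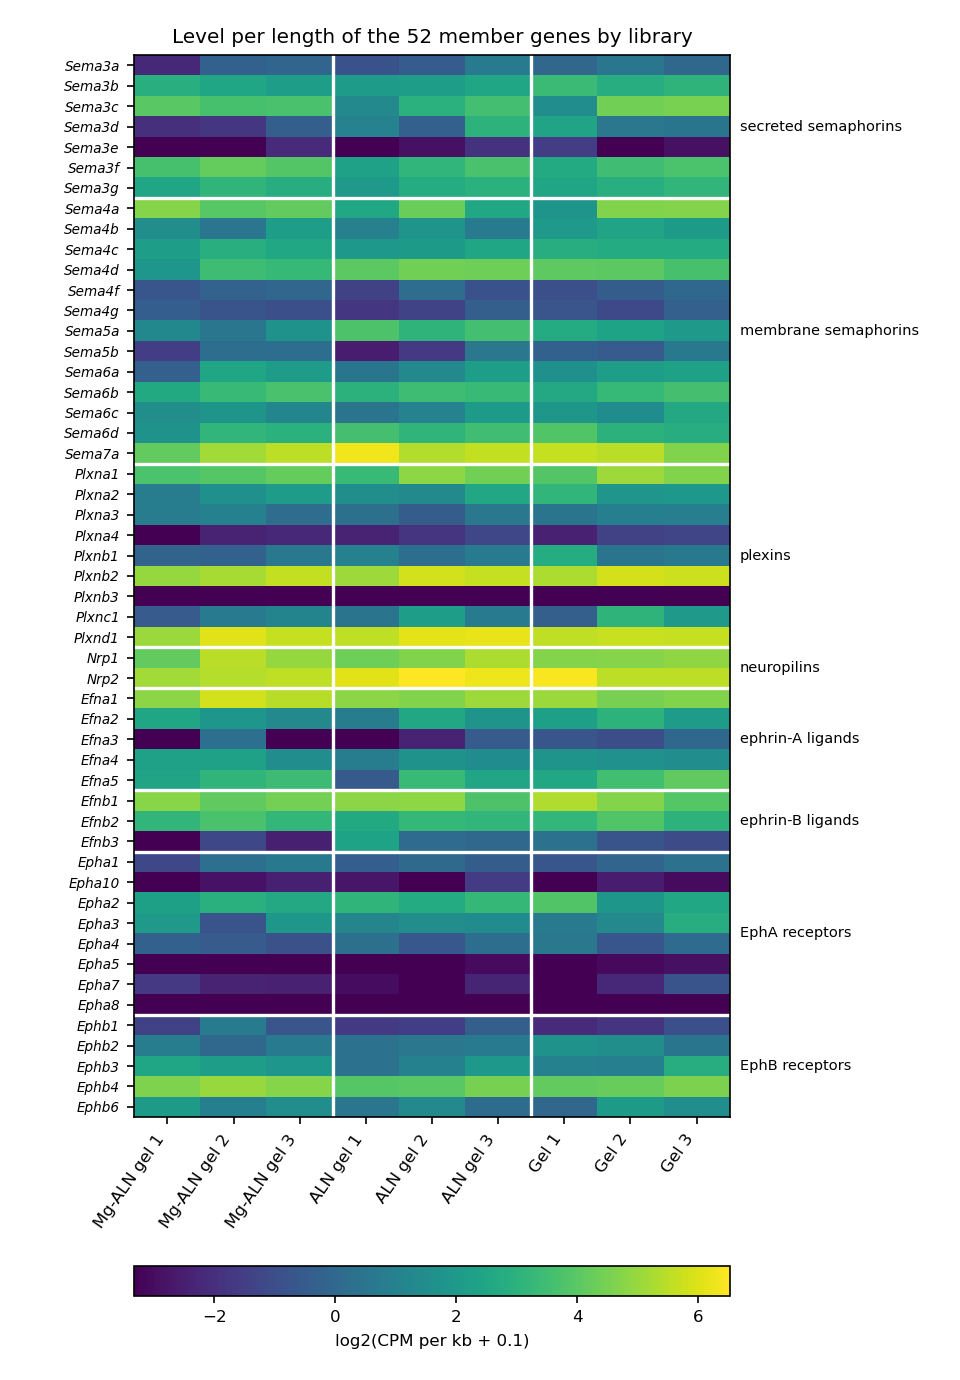
Level per length of the 52 members, as log2(CPM per kilobase + 0.1), with 1 row per gene, grouped by role, and 1 column per library in Mg-ALN gel, ALN gel and Gel. Nrp2, Plxnd1, Plxnb2 and Sema7a are among the brightest rows, and Plxnb3 and Epha8 are dark in all of them.

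No member passed the edgeR quasi-likelihood test at a Benjamini-Hochberg adjusted p of 0.05 in any of the 3 comparisons, and neither did any other gene, so the called share over all 15460 genes was 0%. In a bulk tissue, fewer cells of a type and less RNA per cell cannot be told apart. At an unadjusted edgeR p under 0.05, 6 of 45 members differed between Mg-ALN gel and ALN gel, beside 9.19% of all genes tested. Of these, 1 was higher (3.76% of all genes) and 5 were lower (5.43%). The values of 7 members did not overlap between these 2 groups, beside 16.5% of all genes tested, with 2 above (6.76%) and 5 below (9.77%). For ALN gel against Gel, 3 members passed the unadjusted threshold (8.20% of all genes), 1 higher (5.78%) and 2 lower (2.42%). There 4 did not overlap (16.1% of all genes), 1 above (11.1%) and 3 below (5.03%). For Mg-ALN gel against Gel, 5 passed (9.31% of all genes), 1 higher (5.43%) and 4 lower (3.88%). There 6 did not overlap (18.3% of all genes), 1 above (9.76%) and 5 below (8.56%). The joint edgeR test of the 3 groups had 6 members under the unadjusted threshold (9.29% of all genes). Each pair of comparisons shares 1 group's libraries, so their counts are not independent.

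By DESeq2, 3 members were called at an adjusted p under 0.05 for Mg-ALN gel against ALN gel, all lower (DESeq2 called 171 genes or 1.05% of those with an adjusted p, 0.733% lower). They were Sema5a with an adjusted p of 9.86e-06, Efnb3 with 0.0233 and Sema3d with 0.0285. limma-voom called no member there, and 2 genes in all (0.0129%). Neither tool called a member for ALN gel against Gel, where DESeq2 called 95 genes (0.657%) and limma-voom 263 genes (1.70%). For Mg-ALN gel against Gel no member was called either, with 48 genes by DESeq2 (0.254%) and 0 by limma-voom. In the joint test of the 3 groups DESeq2 called Sema5a, with an adjusted p of 7.85e-05 and 193 genes in all (1.13%), and limma-voom gave it an adjusted p of 0.058, with 28 genes in all (0.181%). When each library was left out in turn, the DESeq2 call between Mg-ALN gel and ALN gel held in 9 of 9 fits for Sema5a, in 6 of 9 for Efnb3 and in 5 of 9 for Sema3d. Efnb3 lost it without library 1 or 3 of Mg-ALN gel or library 1 of ALN gel, and Sema3d without library 1 or 2 of Mg-ALN gel or library 1 or 3 of ALN gel.

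The median log2 fold change of the 45 members was 0.14 for Mg-ALN gel against ALN gel, -0.25 for ALN gel against Gel and -0.30 for Mg-ALN gel against Gel, beside -0.04, 0.00 and -0.03 over all genes tested. For Mg-ALN gel relative to ALN gel, 26 members had a positive fold change and 19 a negative one, beside 7180 and 8280 of all genes tested. For ALN gel relative to Gel, 13 members were positive and 32 negative, beside 7702 and 7758 of all genes. For Mg-ALN gel relative to Gel, 14 members were positive and 31 negative, beside 7382 and 8077 of all genes.

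Same-numbered libraries of ALN gel and Gel were treated as pairs because their deviations from the group means correlated, at 0.226 to 0.419. Differently numbered libraries of these groups correlated at -0.283 to -0.0125. However, Mg-ALN gel library 2 and ALN gel library 3, which share no number, correlated at 0.32. Deviations from a shared group mean are not independent, so these values do not establish pairs. The labels do not say that same-numbered libraries of ALN gel and Gel are pairs. The mitochondrial share also fell from library 1 to library 3 in both groups, and its part in these correlations was not tested. Fold changes, SE and p-values given for ALN gel against Gel come from the fit without pairing, unless a block is named. Within the 3 same-numbered pairs, 16 of 45 members were lower in ALN gel than in Gel in every pair (17.3% of all genes tested) and 3 were higher in every pair (22.9%). The 16 were Sema3b, Sema3c, Sema3f, Sema3g, Sema4b, Sema4c, Sema4g, Sema5b, Sema6a, Sema6c, Plxna1, Plxna3, Plxnb2, Efna2, Efna5 and Ephb4, and the 3 were Sema5a, Efnb3 and Ephb1. No member was called in the edgeR fit with the replicate number as a block. Statements below that ALN gel and Gel overlap compare the groups without regard to this pairing.

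**Figure D2:**
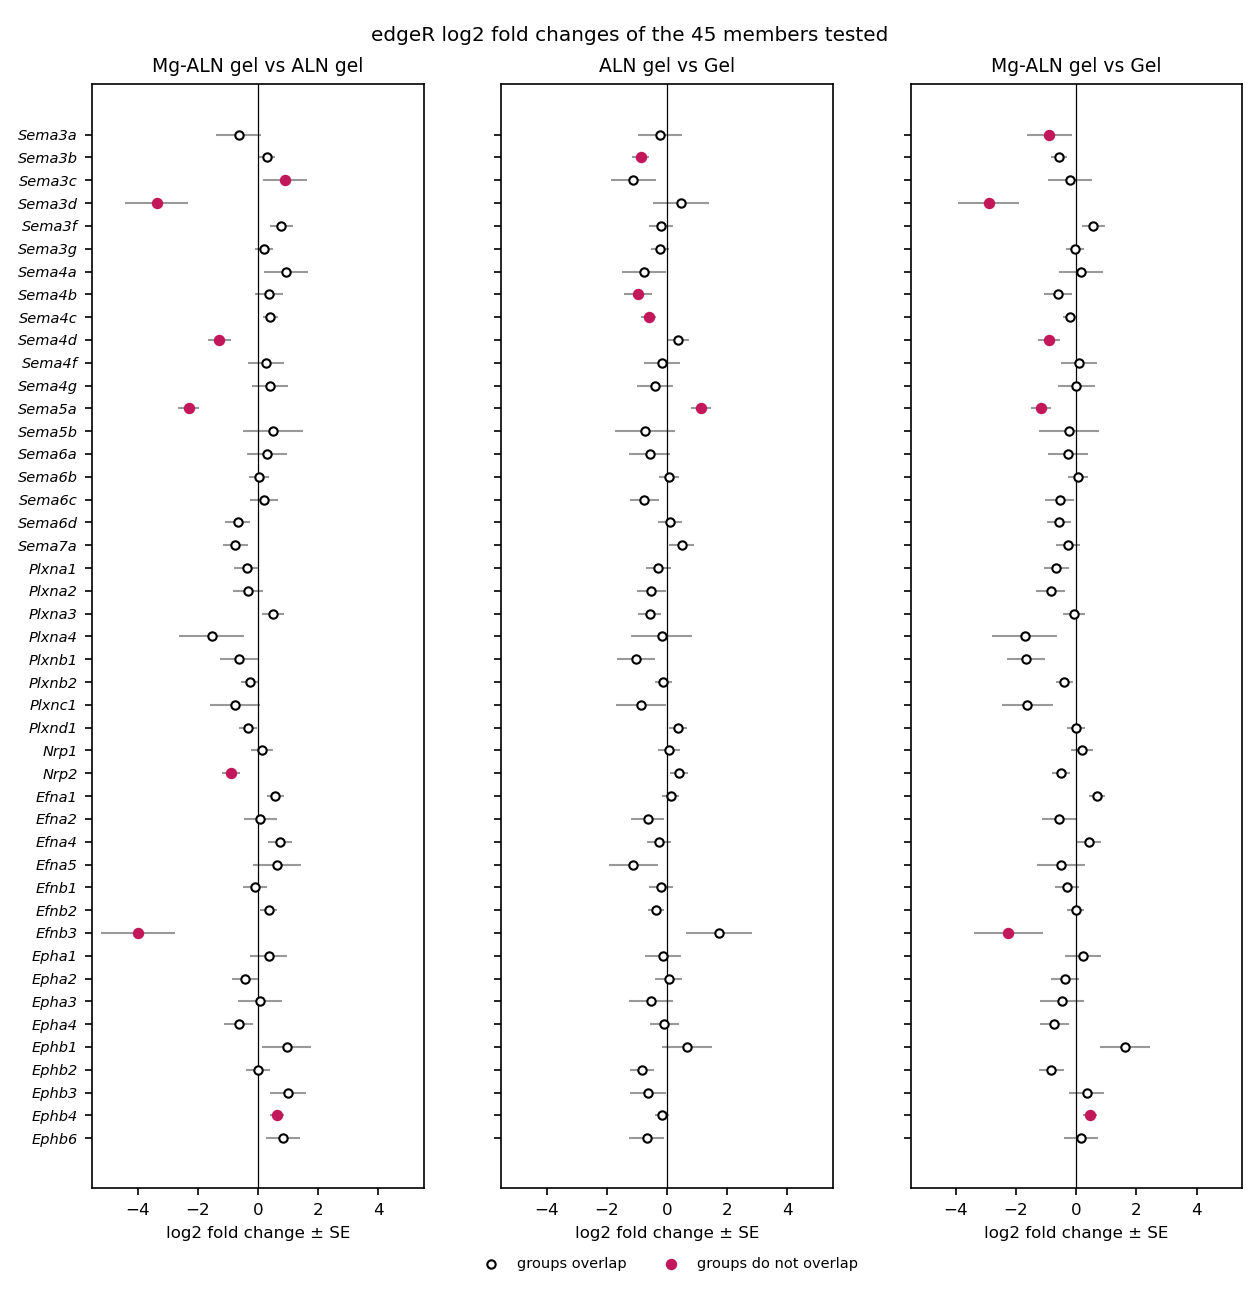
edgeR log2 fold changes with their standard errors for the 45 members tested, in 3 panels for Mg-ALN gel against ALN gel, ALN gel against Gel and Mg-ALN gel against Gel. Filled points mark members whose groups do not overlap, which are 7, 4 and 6 of 45 in the order of the panels; Sema5a is filled in all 3.

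Promoter sequences from RefSeq (build GRCr8) were matched by symbol for 42 of the 52 members, each 300 bases long, and the 4 shown are those available for the members that did not overlap between Mg-ALN gel and ALN gel: Sema3c and Ephb4 were above, Sema3d and Nrp2 below. Capitals mark GGAAA, the core bound by the osteoclast factor NFATc1, read on both strands (TTTCC on the other strand). The Sema3c promoter is at chr4:18699578-18699877 on the minus strand, that of Sema3d at chr4:23460922-23461221 on the minus strand, that of Nrp2 at chr9:71617004-71617303 on the plus strand and that of Ephb4 at chr12:24988339-24988638 on the minus strand.
Sema3c: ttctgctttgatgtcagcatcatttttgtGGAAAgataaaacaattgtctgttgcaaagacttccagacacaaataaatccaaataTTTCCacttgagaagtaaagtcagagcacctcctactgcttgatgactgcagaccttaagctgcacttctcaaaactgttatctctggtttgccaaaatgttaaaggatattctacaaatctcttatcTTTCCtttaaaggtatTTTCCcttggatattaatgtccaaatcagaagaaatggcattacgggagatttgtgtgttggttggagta
Ephb4: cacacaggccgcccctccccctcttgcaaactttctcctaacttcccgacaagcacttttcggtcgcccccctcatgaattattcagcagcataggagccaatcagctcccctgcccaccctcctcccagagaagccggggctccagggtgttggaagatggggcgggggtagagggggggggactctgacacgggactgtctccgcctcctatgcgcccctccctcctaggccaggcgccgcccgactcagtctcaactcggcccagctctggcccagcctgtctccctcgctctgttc
Sema3d: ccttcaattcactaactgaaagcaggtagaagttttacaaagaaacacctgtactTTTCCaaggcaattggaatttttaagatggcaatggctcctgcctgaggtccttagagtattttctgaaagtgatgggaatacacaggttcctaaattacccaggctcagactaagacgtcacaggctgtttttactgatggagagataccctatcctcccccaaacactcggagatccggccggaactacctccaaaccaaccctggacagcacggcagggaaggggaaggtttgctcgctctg
Nrp2: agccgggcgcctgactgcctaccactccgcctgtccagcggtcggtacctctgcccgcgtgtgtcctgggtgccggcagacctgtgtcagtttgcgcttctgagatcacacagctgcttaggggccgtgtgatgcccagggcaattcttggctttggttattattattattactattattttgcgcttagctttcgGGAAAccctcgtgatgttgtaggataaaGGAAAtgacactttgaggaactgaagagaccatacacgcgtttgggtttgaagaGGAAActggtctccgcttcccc
The GGAAA core occurred 4 times for Sema3c, 0 times for Ephb4, 1 time for Sema3d and 3 times for Nrp2. It was present in 62.7% of all 33469 promoters and in 50.0% of the 42 of members. GGGCGG, the core of the GC box, occurred 3 times for Ephb4, and was present in 33.1% of all promoters and 52.4% of those of members. The AP-1 site TGACTCA and the TATA element TATAAA were in 4.6% and 14.2% of all promoters, and in 2.4% and 0.0% of those of members. No motif has another inside it, and a match is a description of these letters only. Median GC content was 62.15% for members and 51.7% for all promoters.

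The semaphorins that did not overlap between Mg-ALN gel and ALN gel are described first, and the other members without overlap there, Nrp2, Efnb3 and Ephb4, follow with their families. Sema5a, a membrane-bound semaphorin with thrombospondin repeats, lies on chromosome 2 at 85377318 to 85808970 on the plus strand, in the coordinates of the deposited table, whose genome build is not given in the sources used here. Its level was 24.4, 14.4 and 33.4 CPM in Mg-ALN gel, 142, 88.1 and 125 CPM in ALN gel and 68.0, 54.3 and 39.7 CPM in Gel. The 3 groups were fully separate, with ALN gel highest and Mg-ALN gel lowest. Sema5a was the 1 member with ALN gel above both other groups, a pattern of 3.51% of all genes tested. Across all genes tested, 0.809% had 3 groups that were fully separate, and 26 genes, or 0.168%, had them in the order ALN gel, Gel, Mg-ALN gel. Means were 24.1 ± 9.50 CPM in Mg-ALN gel, 118 ± 27.4 CPM in ALN gel and 54.0 ± 14.2 CPM in Gel (SD, n = 3 each).

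For Sema5a the edgeR log2 fold change was -2.30 (SE 0.35) for Mg-ALN gel relative to ALN gel, with an edgeR adjusted p of 0.285. It was 1.13 (SE 0.34) for ALN gel relative to Gel, with an edgeR adjusted p of 0.528, and -1.17 (SE 0.34) for Mg-ALN gel relative to Gel, with an edgeR adjusted p of 0.530. By unadjusted p it ranked 6, 260 and 173 among the 15460 genes in these comparisons, and 11 in the joint test. With any 1 library left out, the 3 fold changes stayed between -2.61 and -1.99, between 0.90 and 1.33 and between -1.48 and -0.92. Plexin-B3, the receptor known for semaphorin 5A, had no count in any library. Plxna1, which transmits semaphorin 5A signals in the mouse retina, averaged 137 ± 21.3 CPM in Mg-ALN gel, 178 ± 83.9 CPM in ALN gel and 217 ± 85.9 CPM in Gel, and its groups overlapped.

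Of 11 osteoclast markers tested, 0 were higher and 7 lower for Mg-ALN gel relative to ALN gel (3.76% and 5.43% of all genes). For ALN gel relative to Gel, 5 were higher and 0 lower (5.78% and 2.42%). For Mg-ALN gel relative to Gel, 0 passed either way (5.43% and 3.88%). These counts and shares are at an unadjusted edgeR p under 0.05. The 12 osteoclast markers summed to 3910, 11300 and 12700 CPM in Mg-ALN gel, 31800, 28000 and 22000 CPM in ALN gel and 18500, 4500 and 2380 CPM in Gel. ALN gel was again highest, but the sums of Mg-ALN gel and Gel overlapped, whereas Sema5a did not. Ctsk, the main collagen-degrading protease of osteoclasts, had 2010, 7090 and 7590 CPM in Mg-ALN gel, 14500, 12800 and 10000 CPM in ALN gel and 8530, 2420 and 1260 CPM in Gel, and none of the 12 markers was at 0 in all libraries, though Dcstamp was at 0 in 7 of 9. The part of osteoclast content in the Sema5a result was not tested.

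**Figure D3:**
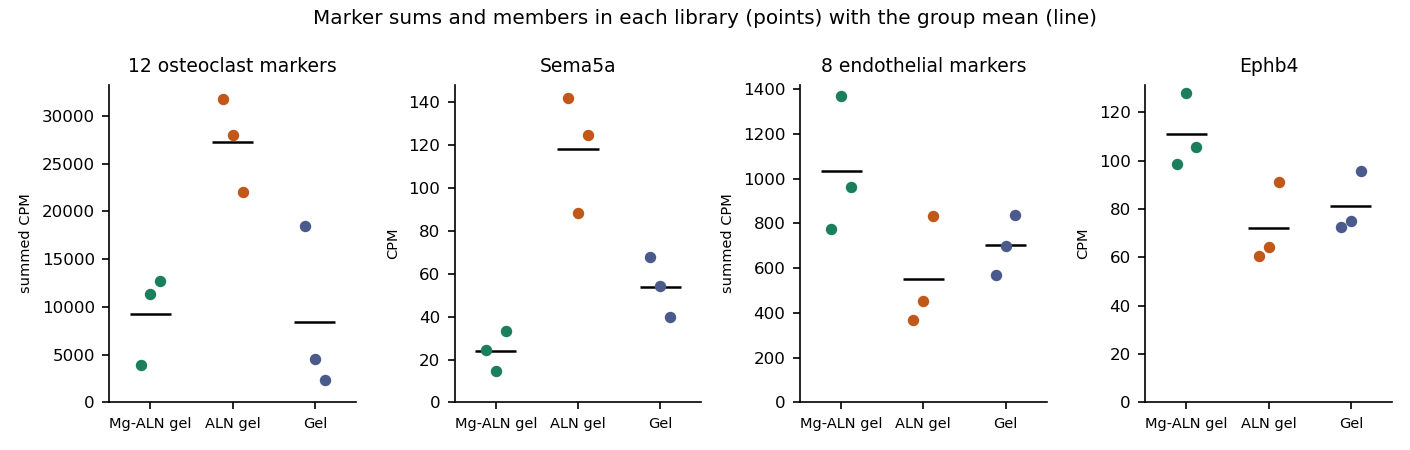
Summed CPM of the 12 osteoclast markers, CPM of Sema5a, summed CPM of 8 endothelial markers and CPM of Ephb4 in each library (points) with the group mean (line). In Mg-ALN gel, Sema5a lies at 14.4 to 33.4 CPM, against 88.1 to 142 CPM in ALN gel, and the osteoclast sum is also lower there, at 3910 to 12700 CPM against 22000 to 31800 CPM.

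Sema4d, the semaphorin that mouse osteoclasts make and osteoblasts sense, had 14.5, 45.5 and 39.2 CPM in Mg-ALN gel, 67.7, 88.7 and 83.9 CPM in ALN gel and 68.5, 67.4 and 51.2 CPM in Gel. Mg-ALN gel lay below both other groups, which overlapped each other. Its log2 fold change was -1.28 (SE 0.38, edgeR adjusted p 0.496) for Mg-ALN gel relative to ALN gel, -0.91 (SE 0.37, edgeR adjusted p 0.530) for Mg-ALN gel relative to Gel and 0.36 (SE 0.37) for ALN gel relative to Gel. Without Mg-ALN gel library 1, which had the lowest value, the value against Gel was -0.56. T cells also carry semaphorin 4D, and the 7 T cell markers, none of them at 0 in all libraries, summed to 114 to 130 CPM in Mg-ALN gel, 155 to 266 CPM in ALN gel and 133 to 220 CPM in Gel. The Mg-ALN gel sums lay below all others through Cd4, which rat macrophages also carry, at 48.2 to 69.8 CPM in Mg-ALN gel, 124 to 203 CPM in ALN gel and 100 to 120 CPM in Gel. Without Cd4 the other 6 markers summed to 76.9, 44.6 and 65.7 CPM in Mg-ALN gel, 39.0, 63.1 and 30.5 CPM in ALN gel and 13, 117 and 90.6 CPM in Gel, and all groups overlapped. The median log2 fold change of the 7 T cell markers was -0.13 for Mg-ALN gel relative to ALN gel, beside -0.04 over all genes. Of the 7, 3 were positive and 4 negative. The osteoclast sums of Mg-ALN gel also lay below those of ALN gel. Unlike Sema4d, they overlapped those of Gel, at 3910 to 12700 CPM in Mg-ALN gel and 2380 to 18500 CPM in Gel. The part of osteoclast content in the Sema4d result was not tested.

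Sema3d, a secreted class 3 semaphorin, was low and uneven, at 0.788, 0.953 and 3.43 CPM in Mg-ALN gel, 9.62, 3.58 and 40.7 CPM in ALN gel and 26.1, 6.83 and 6.46 CPM in Gel. Every Mg-ALN gel library lay below every other library. Its log2 fold change was -3.37 (SE 1.04, edgeR adjusted p 0.496) against ALN gel and -2.91 (SE 1.02, edgeR adjusted p 0.530) against Gel. Without ALN gel library 3 the value was -1.90, and without Gel library 1 the value against Gel was -1.94. Of 6 cartilage markers tested, all 6 had a negative fold change in Mg-ALN gel. The median log2 fold change was -4.43 relative to ALN gel and -2.94 relative to Gel, beside -0.04 and -0.03 over all genes tested. At the unadjusted edgeR threshold 2 and 3 of them passed, beside 5.43% and 3.88% of all genes lower. The 7 cartilage markers, none at 0 in all libraries, summed to 93.5, 112 and 62.8 CPM in Mg-ALN gel, 129, 87.5 and 989 CPM in ALN gel and 176, 74.7 and 477 CPM in Gel. Library 3 of ALN gel, the highest for Sema3d, also had the highest cartilage sum, of which Comp made up 573 CPM. The other groups did not show this match. In Gel, Sema3d was highest in library 1 and the cartilage sum in library 3. In Mg-ALN gel, library 3 had the highest Sema3d and the lowest cartilage sum. Col2a1, the main collagen of cartilage, had 0.946, 0.298 and 0.953 CPM in Mg-ALN gel, 62.1, 20.4 and 47.6 CPM in ALN gel and 46.8, 0.113 and 305 CPM in Gel. The part of cartilage content in the Sema3d result was not tested.

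Sema3c, a secreted ligand for neuropilins and plexin-D1, had 79.5, 63.5 and 65.2 CPM in Mg-ALN gel, 12.02, 39.1 and 60.04 CPM in ALN gel and 13.7, 109 and 119 CPM in Gel. Mg-ALN gel lay above ALN gel without overlap, by a log2 fold change of 0.90 (SE 0.74, unadjusted edgeR p 0.251), and within the range of Gel. Leaving out ALN gel library 1 gave 0.48, and leaving out library 3 of that group gave 1.46. Library 1 of both ALN gel and Gel was low. The 6 fibroblast markers, none of them at 0 in all libraries, summed to 4710 to 8720 CPM in Mg-ALN gel, 1710 to 4900 CPM in ALN gel and 3750 to 6080 CPM in Gel, and the part of fibroblast content in the Sema3c result was not tested.

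Sema3b, a secreted semaphorin, was lower in ALN gel, with 10.2, 10.9 and 13.8 CPM in ALN gel and 26.0, 17.3 and 20.9 CPM in Gel, a log2 fold change of -0.88 (SE 0.27, unadjusted edgeR p 0.00978, adjusted 0.528). Mg-ALN gel, at 18.0, 13.6 and 11.3 CPM, overlapped both. Sema4c, a ligand of plexin-B2, likewise did not overlap, with 15.8, 17.0 and 23.4 CPM in ALN gel against 29.5, 28.0 and 28.1 CPM in Gel, a log2 fold change of -0.61 (SE 0.25, unadjusted edgeR p 0.0355, adjusted 0.581). Sema4b had 6.44, 11.4 and 5.53 CPM in ALN gel and 13.4, 18.4 and 14.04 CPM in Gel, a log2 fold change of -0.97 (SE 0.46, unadjusted edgeR p 0.0623).

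**Figure D4:**
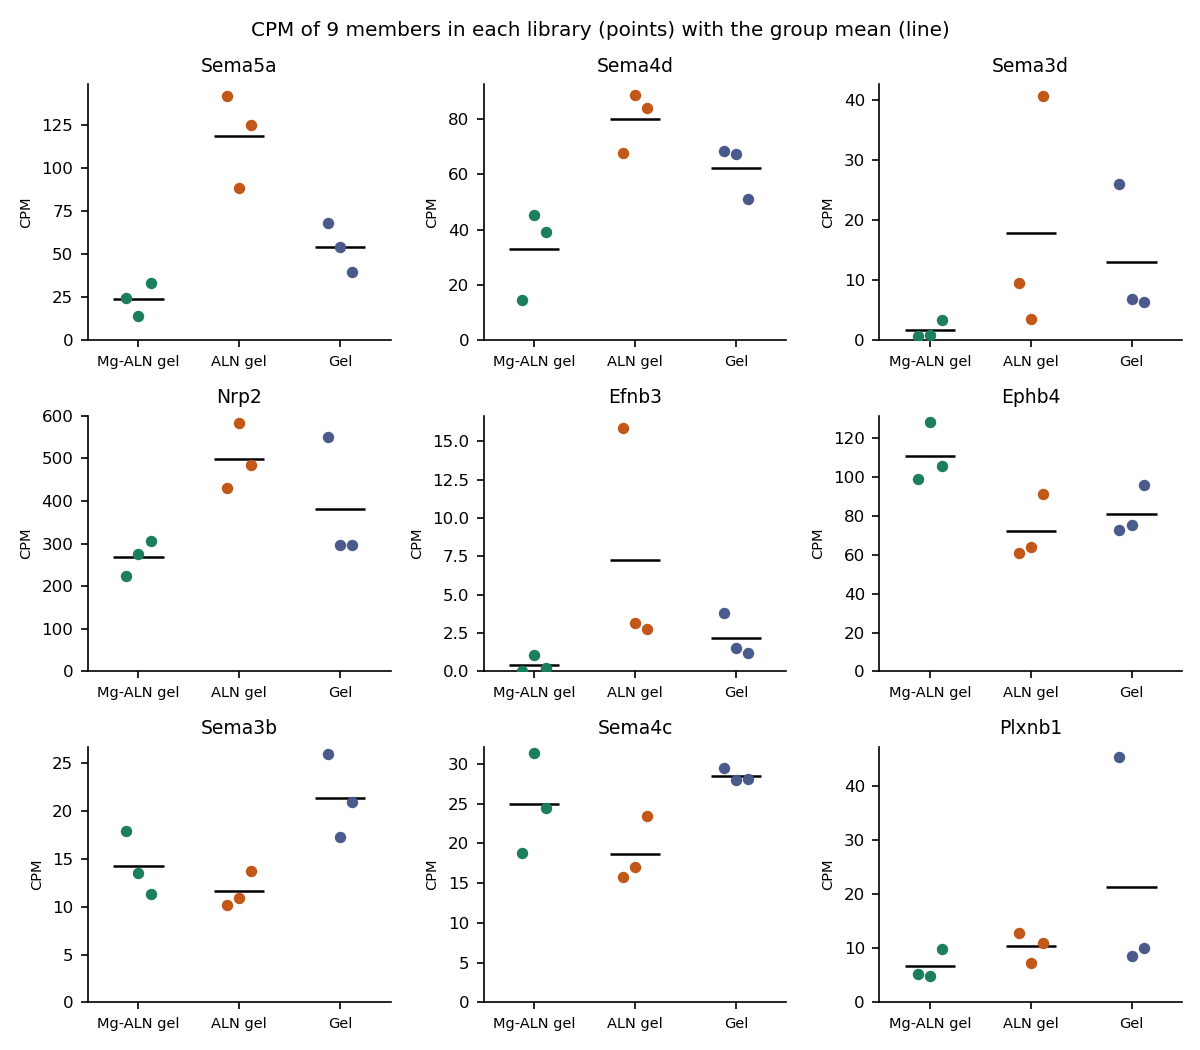
CPM of 9 members in each library (points) with the group mean (line) in Mg-ALN gel, ALN gel and Gel. Sema5a separates all 3 groups, Sema4d, Sema3d and Efnb3 are lowest in Mg-ALN gel, Ephb4 is highest there, Sema3b and Sema4c are lower in ALN gel than in Gel, and the Plxnb1 mean in Gel rests on 1 library at 45.2 CPM.

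The other semaphorins known for bone coupling were Sema3a, Sema6d and Sema7a. Sema3a was at 0.394, 2.44 and 2.79 CPM in Mg-ALN gel, 1.55, 2.13 and 5.10 CPM in ALN gel and 2.92, 4.57 and 3.01 CPM in Gel, and did not overlap only between Mg-ALN gel and Gel, where its log2 fold change was -0.89 (SE 0.74, unadjusted edgeR p 0.259), or -0.42 without Mg-ALN gel library 1. Sema6d had 19.9, 54.5 and 48.1 CPM in Mg-ALN gel, 74.9, 52.6 and 68.7 CPM in ALN gel and 89.2, 49.3 and 42.7 CPM in Gel. Sema7a had 46.0, 92.9 and 122 CPM in Mg-ALN gel, 205, 108 and 127 CPM in ALN gel and 130, 120 and 65.5 CPM in Gel. The 2 genes overlapped in all 3 comparisons, with log2 fold changes of -0.68 (SE 0.40) for Sema6d and -0.75 (SE 0.41) for Sema7a for Mg-ALN gel relative to ALN gel. Without Mg-ALN gel library 1 the Sema6d value was -0.35, and without ALN gel library 1 the Sema7a value was -0.44. Per library, the 7 secreted semaphorins summed to 42.5 ± 2.82 CPM per kilobase in Mg-ALN gel, 31.5 ± 15.3 in ALN gel and 45.6 ± 12.8 in Gel, and the 13 membrane semaphorins to 96.6 ± 22.9, 130 ± 10.6 and 119 ± 10.1 in the same groups (SD, n = 3 each).

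Among the receptors, Nrp2 had 223, 275 and 307 CPM in Mg-ALN gel, 431, 583 and 484 CPM in ALN gel and 549, 297 and 297 CPM in Gel. Its log2 fold change was -0.90 (SE 0.30, unadjusted edgeR p 0.0150, adjusted 0.496) for Mg-ALN gel relative to ALN gel, and Gel overlapped both. The osteoclast sums given above lay at 3910 to 12700 CPM in Mg-ALN gel and 22000 to 31800 CPM in ALN gel. In Gel they lay at 2380 to 18500 CPM. Gel library 1, the highest of its group for Nrp2, was also the highest of its group for that sum. In Mg-ALN gel, too, the same library was highest for both. ALN gel did not show this match, since its library 1 had the highest osteoclast sum, at 31800 CPM, and the lowest Nrp2, at 431 CPM. The part of osteoclast content in the Nrp2 result was not tested. Nrp1 had 99.7, 251 and 172 CPM in Mg-ALN gel, 112, 141 and 222 CPM in ALN gel and 145, 148 and 163 CPM in Gel, and its log2 fold changes of 0.14, 0.06 and 0.20 for Mg-ALN gel relative to ALN gel, ALN gel against Gel and Mg-ALN gel against Gel all had an SE of 0.36.

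Of the 8 plexins tested, 1 passed the unadjusted edgeR threshold, for Mg-ALN gel relative to Gel (9.31% of all genes). All 8 overlapped between groups in every comparison. Plxnb1, the receptor of semaphorin 4D, had 5.202, 4.94 and 9.78 CPM in Mg-ALN gel, 12.9, 7.34 and 10.9 CPM in ALN gel and 45.2, 8.58 and 9.97 CPM in Gel. Its log2 fold change was -1.67 (SE 0.64, unadjusted edgeR p 0.0286, adjusted 0.530) for Mg-ALN gel relative to Gel, but -0.48 without Gel library 1. Plxnc1, the receptor of semaphorin 7A, ranged over 2.92 to 9.72 CPM in Mg-ALN gel, 6.05 to 20.5 CPM in ALN gel and 3.20 to 39.9 CPM in Gel. The plexin sum was 111 ± 25.8 CPM per kilobase in Mg-ALN gel, 139 ± 35.6 in ALN gel and 140 ± 20 in Gel.

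The remaining tested semaphorins passed no threshold in any comparison. Sema4a, which acts on immune cells, was uneven within groups, at 120, 69.0 and 79.9 CPM in Mg-ALN gel, 26.1, 88.3 and 25.9 CPM in ALN gel and 14.7, 111 and 115 CPM in Gel. Sema6b, another membrane-bound semaphorin, averaged 37.2 ± 12.97 CPM in Mg-ALN gel, 36.6 ± 5.82 CPM in ALN gel and 35.5 ± 11.9 CPM in Gel (SD, n = 3 each). Sema3g, a class 3 semaphorin of endothelial cells, averaged 26.6 ± 5.68 CPM in Mg-ALN gel, 23.4 ± 7.51 CPM in ALN gel and 27.5 ± 6.22 CPM in Gel. Sema4f, Sema4g and Sema5b were low, with group means of 1.72 to 3.07 CPM. Sema6a ranged over 2.29 to 17.1 CPM in Mg-ALN gel, 4.19 to 14.4 CPM in ALN gel and 9.54 to 15.6 CPM in Gel, and Sema6c over 7.11 to 11.02 CPM in Mg-ALN gel, 4.19 to 13.3 CPM in ALN gel and 8.74 to 19.7 CPM in Gel.

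The same held for the plexins other than Plxnb1. Plxnb2 had 203, 242 and 317 CPM in Mg-ALN gel, 221, 372 and 329 CPM in ALN gel and 259, 388 and 359 CPM in Gel. Plxna2 averaged 32.6 ± 13.7 CPM in Mg-ALN gel, 40.9 ± 19.9 CPM in ALN gel and 58.9 ± 33.6 CPM in Gel, the last with 1 library at 97.6 CPM. Plxna3, a partner of neuropilins, ranged over 7.68 to 14.1 CPM in Mg-ALN gel, 4.77 to 10.7 CPM in ALN gel and 9.68 to 13.3 CPM in Gel. Plxna4, a receptor mainly of the nervous system, was at 0 to 0.635 CPM in Mg-ALN gel, 0.543 to 1.88 CPM in ALN gel and 0.498 to 1.82 CPM in Gel.

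Among ephrin ligands, Efnb3, a transmembrane ligand, had counts of 0, 18 and 4 in Mg-ALN gel. It stood at 0, 1.07 and 0.254 CPM in Mg-ALN gel, 15.9, 3.14 and 2.80 CPM in ALN gel and 3.84, 1.52 and 1.19 CPM in Gel. The log2 fold change was -3.98 (SE 1.22, edgeR adjusted p 0.496) for Mg-ALN gel relative to ALN gel, and -2.70 without ALN gel library 1, which carries most of the ALN gel counts. Efna1, a lipid-anchored ligand outside the rule for named genes and picked because it passed the unadjusted threshold, had 42.6, 87.4 and 68.3 CPM in Mg-ALN gel and 50.0, 34.9 and 38.2 CPM in Gel, a log2 fold change of 0.69 (SE 0.28, unadjusted edgeR p 0.0371, adjusted 0.530), and the groups overlapped. Without Mg-ALN gel library 2 the value was 0.41. Efnb1 and Efnb2 overlapped in every comparison, with Efnb2 at 37.4, 55.1 and 38.9 CPM in Mg-ALN gel, 26.2, 38.9 and 37.7 CPM in ALN gel and 38.4, 59.6 and 34.7 CPM in Gel. Efnb1 had 87.7, 56.4 and 71.1 CPM in Mg-ALN gel, 91.2, 94.2 and 44.1 CPM in ALN gel and 132, 83.8 and 49.2 CPM in Gel. Efna4 ranged over 4.13 to 7.33 CPM in Mg-ALN gel, 2.56 to 4.71 CPM in ALN gel and 4.14 to 4.98 CPM in Gel, and Efna5 over 3.55 to 7.05 CPM in Mg-ALN gel, 0.388 to 6.53 CPM in ALN gel and 3.84 to 11.4 CPM in Gel. Efna1, Efna3 and Efna4 lie together on chromosome 2, with 41.6 kb between Efna1 and Efna3 and 10.7 kb between Efna3 and Efna4.

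The EphB receptors summed to 36.9 ± 3.06 CPM per kilobase in Mg-ALN gel, 23.4 ± 5.41 in ALN gel and 28.8 ± 5.60 in Gel (SD, n = 3 each), and Ephb4 made up most of the sum. Ephb4, the receptor of ephrin-B2 on osteoblasts and on venous endothelium, had 98.8, 128 and 106 CPM in Mg-ALN gel, 60.7, 64.2 and 91.0 CPM in ALN gel and 72.5, 75.3 and 95.7 CPM in Gel. Mg-ALN gel lay above both other groups. ALN gel and Gel overlapped, with ALN gel the lower in each of the 3 same-numbered pairs. Its log2 fold change was 0.62 (SE 0.23, unadjusted edgeR p 0.0222, adjusted 0.496) against ALN gel and 0.45 (SE 0.23, unadjusted edgeR p 0.0768) against Gel. Ephb2 had 8.43, 4.47 and 7.75 CPM in Mg-ALN gel, 6.05, 6.96 and 7.66 CPM in ALN gel and 16.2, 13.8 and 6.58 CPM in Gel, and overlapped in all 3 comparisons. The other EphB receptors overlapped throughout. Ephb1 was at 1.26 to 6.97 CPM in Mg-ALN gel, 1.01 to 3.221 CPM in ALN gel and 0.569 to 2.01 CPM in Gel. Ephb3 had 22.5, 17.8 and 13.97 CPM in Mg-ALN gel, 4.81, 7.59 and 14.9 CPM in ALN gel and 7.69, 7.22 and 27.5 CPM in Gel. Ephb6, which lacks kinase activity, averaged 11.6 ± 4.56 CPM in Mg-ALN gel, 6.48 ± 2.95 CPM in ALN gel and 10.3 ± 6.56 CPM in Gel. Of 8 EphA receptors, 4 were tested, and none passed the unadjusted edgeR threshold in any comparison. Epha2, which meets ephrin-A2 in mouse bone, had 18.4, 29.4 and 23.5 CPM in Mg-ALN gel, 33.5, 25.9 and 36.3 CPM in ALN gel and 56.0, 14.2 and 22.3 CPM in Gel. Epha3 and Epha4, both guidance receptors, ranged over 2.98 to 23.8 and 2.79 to 4.57 CPM in Mg-ALN gel, 13.2 to 17.3 and 3.45 to 7.14 CPM in ALN gel and 9.96 to 42.7 and 3.33 to 9.11 CPM in Gel. Efna2 was at 2.79 to 6.46 CPM in Mg-ALN gel, 1.94 to 6.84 CPM in ALN gel and 4.89 to 9.59 CPM in Gel.

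Of 7 endothelial markers tested, 4 were higher and 0 lower for Mg-ALN gel relative to ALN gel (3.76% and 5.43% of all genes). For Mg-ALN gel relative to Gel, 2 were higher and 0 lower (5.43% and 3.88%). These counts and shares are at an unadjusted edgeR p under 0.05. The 8 endothelial markers summed to 774, 1370 and 962 CPM in Mg-ALN gel, 368, 452 and 834 CPM in ALN gel and 570, 697 and 838 CPM in Gel, with Cldn5 at 0 in all libraries, and the sums of Mg-ALN gel overlapped both other groups. Egfl7, a protein secreted by endothelial cells, had 114, 122 and 106 CPM in Mg-ALN gel, 69.8, 43.5 and 53.8 CPM in ALN gel and 49.0, 47.6 and 48.0 CPM in Gel. Within each of the 3 groups, the libraries had the same order for Ephb4 as for the endothelial sum. The part of endothelial content in the Ephb4 result was not tested.

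Known ligand and receptor pairs differed in which partner was the more abundant. Sema4d lay above Plxnb1 and Sema7a above Plxnc1 per length in every library, whereas Sema3a lay below Nrp1 and Efnb2 below Ephb4. Sema3f, the ligand of neuropilin 2, had 76.1, 112 and 89.6 CPM in Mg-ALN gel, 29.2, 53.9 and 79.2 CPM in ALN gel and 38.3, 67.6 and 80.9 CPM in Gel, while Nrp2 lay below its ALN gel values in every Mg-ALN gel library.

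**Figure D5:**
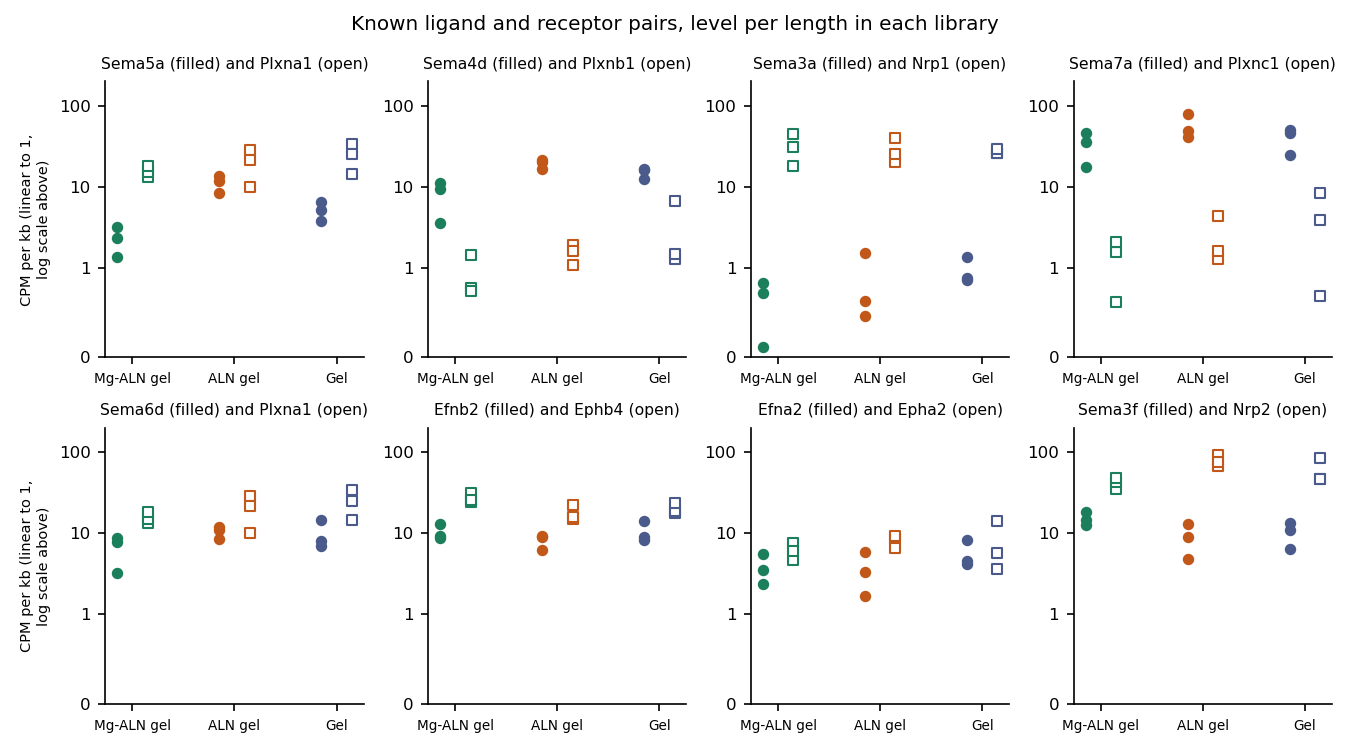
Level per length, as CPM per kilobase on an axis linear to 1 and logarithmic above, of 8 known ligand (filled) and receptor (open) pairs in each library of Mg-ALN gel, ALN gel and Gel. Sema3a lies below Nrp1 and Efnb2 below Ephb4 in every library, and Sema7a lies above Plxnc1.

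Of 22 tested partners and effectors of semaphorins and plexins, no gene passed the adjusted threshold in edgeR. At the unadjusted threshold 3 were higher and 1 lower for Mg-ALN gel relative to ALN gel (3.76% and 5.43% of all genes). For ALN gel relative to Gel the counts were 0 and 0 (5.78% and 2.42%). For Mg-ALN gel relative to Gel they were 1 and 2 (5.43% and 3.88%). Their median log2 fold changes were -0.08, -0.25 and -0.16 in this order, beside -0.04, 0 and -0.03 over all genes tested. Rras, a small GTPase that plexins inactivate, had 90.4, 66.4 and 58.4 CPM in Mg-ALN gel, 32.4, 40.8 and 50.4 CPM in ALN gel and 31.5, 46.2 and 43.7 CPM in Gel, and Mg-ALN gel lay above both other groups. Arhgef11, an exchange factor bound by plexin-B1, had 21.8, 37.9 and 35.6 CPM in Mg-ALN gel, 44.8, 49.8 and 63.1 CPM in ALN gel and 61.0, 49.4 and 47.0 CPM in Gel. Erbb2, a receptor kinase that associates with plexin-B1, was at 1.58, 0.953 and 0.826 CPM in Mg-ALN gel against 6.76, 2.60 and 4.20 CPM in Gel. Its ALN gel values were 1.24, 2.2 and 4.62 CPM.

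Of 18 tested Eph and ephrin effectors, 2 were higher and 0 lower for Mg-ALN gel relative to ALN gel (3.76% and 5.43% of all genes). For ALN gel relative to Gel the counts were 0 and 1 (5.78% and 2.42%). For Mg-ALN gel relative to Gel they were 0 and 1 (5.43% and 3.88%), all at the unadjusted threshold. Vav2, an exchange factor recruited by Eph receptors, had 24.7, 19.8 and 18.5 CPM in ALN gel and 60.0, 30.1 and 25.8 CPM in Gel. In Mg-ALN gel it had 20, 18.2 and 25.4 CPM, so both gels with ALN lay below Gel. Anks1a, an adaptor of Eph receptors, had 32.2, 36.5 and 52.5 CPM in Mg-ALN gel and 23.4, 28.0 and 25.1 CPM in ALN gel. Its Gel values were 23.5, 42 and 40.7 CPM. Arhgef16, an exchange factor, had 2.36, 3.87 and 4.70 CPM in Mg-ALN gel and 0, 1.07 and 0.790 CPM in ALN gel. Its Gel values were 0.641, 1.86 and 2.57 CPM.

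Of 16 tested slit, robo and netrin genes, another guidance system, 0 were higher and 2 lower at the unadjusted edgeR threshold in each of the 3 comparisons. Over all genes, 5.43%, 2.42% and 3.88% were lower for Mg-ALN gel against ALN gel, ALN gel against Gel and Mg-ALN gel against Gel. In this order, the median log2 fold changes were -0.19, -0.65 and -0.68, beside -0.04, 0 and -0.03 over all genes tested. Slit2, a secreted ligand of robo receptors, had 68.1, 26.7 and 54.9 CPM in Mg-ALN gel, 191, 101 and 114 CPM in ALN gel and 173, 86.4 and 46.5 CPM in Gel, and lay below ALN gel without overlap. Neo1, a netrin and repulsive guidance molecule receptor, had 28.8, 17.7 and 21.4 CPM in Mg-ALN gel against 54.1, 45.6 and 56.1 CPM in ALN gel and 109, 40 and 41.2 CPM in Gel, below both. Ntng2, a membrane-anchored netrin relative, had 4.34, 14.6 and 20.6 CPM in ALN gel and 35.0, 34.6 and 41.6 CPM in Gel. In Mg-ALN gel it had 16.9, 24.3 and 22.2 CPM, also below Gel.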

How the data were processed

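Raw gene counts of 9 libraries were deposited by the authors, and fragment-per-kilobase files were not used. Tools listed in the submitters' processing notes, without their roles, are featureCounts 1.5.0-p3, edgeR 3.22.5, HISAT2 2.0.5, DESeq2 1.20.0, fastp and StringTie 1.3.3b. The genome build and strand setting are not given in the sources used here. Groups came from the sample titles.

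Counts were filtered with filterByExpr, scaled by TMM and fitted in edgeR 4.0.16 (R 4.3.3; quasi-likelihood, all 9 libraries in 1 fit, 3 comparisons and 1 joint test, Benjamini-Hochberg over 15460 genes, threshold 0.05); SE is the fold change divided by the root of F. The filter left 45 members. DESeq2 1.42.0, limma-voom with quality weights (limma 3.58.1), DESeq2-type size factors in edgeR, no filter, a replicate block and leaving out each library were the alternatives. The fit was tested on simulated counts with a smaller spread than the 51.4% coefficient of variation of these data. That check therefore does not show which changes could be called here.

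Members and lists were chosen with earlier results of these data known. Named were the bone pairs, the 4 members with the smallest p per comparison, the 3 highest levels and members without counts, and from each pathway list up to 3 genes with the smallest p; fold changes of Sema3c and Efna1, the direction within pairs and the T cell sum without Cd4 were added after values were seen. Of 164 list entries 159 matched, and Pecam1, Myh2, Myh4, Cd79a and Col6a3 did not. No 2 libraries of a group agreed within counting noise (lowest chi-square per degree of freedom 72.3).

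Replicate numbers come from the titles. Deviations from group means of same-numbered libraries correlated at 0.341, 0.419 and 0.226 between ALN gel and Gel, so directions within pairs were counted for these 2 groups alone. The deviations correlated at 0.130, -0.120 and -0.127 between Mg-ALN gel and ALN gel and at -0.0767, -0.0452 and -0.199 between Mg-ALN gel and Gel. Among libraries with different numbers the highest value was 0.32, between Mg-ALN gel library 2 and ALN gel library 3. The labels do not say what a number marks.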

Additional observations from a re-analysis of the deposited data

How the results depend on the processing

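Each group had 3 libraries and the common coefficient of variation was 51.4%; the smallest difference these libraries could show was not determined. Depth limits members with few counts, such as Efnb3 with 0 to 18 counts in Mg-ALN gel libraries. Over all genes, the edgeR calls of 0 became 95 genes by DESeq2 and 263 by limma-voom for ALN gel against Gel, 171 and 2 for Mg-ALN gel against ALN gel, and 48 by DESeq2 for Mg-ALN gel against Gel. Leaving out 1 library gave 0 to 1 genes for ALN gel against Gel, with 1 only without ALN gel library 3. DESeq2 called 3 members for Mg-ALN gel against ALN gel and 1 in the joint test; the 3 ranged over 1 to 4 with 1 library left out, an alternative chosen after seeing the data, and were 1 without library 1 of Mg-ALN gel or of ALN gel. The cause was not tested. With the replicate block no member was called in any comparison, and Sema5a had log2 fold changes of -2.31, 1.09 and -1.22 for Mg-ALN gel against ALN gel, ALN gel against Gel and Mg-ALN gel against Gel, and 1.13 with the block in the ALN gel and Gel libraries alone, a fit added after seeing the data.

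Directions of uncalled fold changes reversed as follows. For ALN gel against Gel, Nrp1 was -0.01 without a filter, -0.02 by limma-voom and 0 in the added block fit, and Efnb1 was 0.17 by limma-voom. For Mg-ALN gel against ALN gel, Ephb2 was 0.03 with DESeq2-type size factors, 0.02 without a filter and 0.02 by DESeq2. For Mg-ALN gel against Gel, Sema7a was 0.08 by limma-voom, and Plxnd1 was -0.01 with DESeq2-type size factors and by DESeq2, -0.04 without a filter and -0.05 with the replicate block. With 1 library left out, values crossed 0 for ALN gel against Gel in Sema3a (-0.98 to 0.05), Sema6d (-0.13 to 0.50), Nrp1 (-0.32 to 0.26), Plxna1 (-0.73 to 0.04), Plxnb1 (-1.44 to 0.16), Plxnb2 (-0.37 to 0.07) and Efnb1 (-0.54 to 0.20). For Mg-ALN gel against ALN gel they crossed 0 in Sema3a (-1.03 to 0.04), Nrp1 (-0.18 to 0.48), Plxna1 (-0.70 to 0.03), Plxnc1 (-1.15 to 0.01), Efnb1 (-0.35 to 0.13) and Ephb2 (-0.17 to 0.28). For Mg-ALN gel against Gel they crossed in Sema7a (-0.60 to 0.03), Plxnd1 (-0.30 to 0.24), Nrp1 (-0.19 to 0.48), Efnb1 (-0.60 to 0.11) and Efnb2 (-0.24 to 0.24). The other 753 refitted values of named members kept their direction and side of the threshold, and 3 passed it by DESeq2.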
